A study of Mus musculus with 20 samples.

Results

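Interferon signalling and response genes were taken as a set of 40 genes, and their open chromatin was read in mouse blood stem and progenitor cells of 5 genotypes. A peak, meaning a region called open in ATAC-seq, belonged to a member when its centre lay inside that gene or, if it lay in no gene, when that gene had the nearest boundary among protein-coding genes. Where genes overlapped, the shortest was taken. By this rule 36 of the 40 genes had 223 of the 125343 peaks, and 222 of these passed the filter on low counts, 1 Ifngr1 peak being left out. The set held 7 sensors with 31 peaks, 4 interferon receptor chains with 57, 7 transcription factors with 59 and 22 effectors with 76. Sensors here means genes of foreign nucleic acid sensing, including the adaptor Mavs and the ubiquitin ligase Trim25. A member with a peak had a median of 4.5 peaks, and 6 members had 1 peak. Of the peaks, 107 lay inside the gene, 55 lay outside but within 10 kb of its boundary and 61 lay farther away, the farthest 100098 bp from Ifngr1. A gene name therefore marks a neighbour, and no measurement here ties a peak to the expression of that gene.

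Interferons are secreted proteins that put cells into an antiviral state. Sensors such as Ifih1 (MDA5) and Ddx58 (RIG-I) detect viral RNA and signal through Mavs on mitochondria to the factors Irf3 and Irf7, which switch on interferon genes. Type I interferon binds the receptor of Ifnar1 and Ifnar2 and acts through a complex with Stat2 and Irf9 on a DNA element called ISRE, whereas interferon gamma binds Ifngr1 and Ifngr2 and acts on the GAS element. The targets include RNA-binding and membrane effectors such as the Ifit, Oas and Ifitm proteins, and Usp18, which damps the signal. Interferons also act on blood stem cells, where they are known to drive quiescent cells into cycle, and Sca1, encoded by the interferon-inducible gene Ly6a, is part of the gate by which the cells studied here were sorted.

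The cells were Lin-cKit+Sca1+ (LSK) cells from the bone marrow of C57Bl/6J mice aged 3 to 4 months, the compartment of stem cells and multipotent progenitors. Each genotype had 4 libraries, and each library pooled 2 mice. The control (WT) was +/+;Vav-Cre, in which a recombinase is made under the blood-cell Vav promoter. Idh1 R132H stands for Idh1LSL-R132H/+;Vav-Cre, Idh2 R140Q for mice of genotype Idh2LSL-R140Q/+;Vav-Cre, and Idh2 R172K for Idh2LSL-R172K/+;Vav-Cre. Each of these has 1 mutant allele that Cre activates, and the mutant enzymes are known to make the oncometabolite hydroxyglutarate. The last genotype was Tet2-/-, which lacks an enzyme that oxidizes methylated cytosine. Its label names no Cre, so loss of Tet2 and a difference in Cre cannot be told apart. Libraries held from 10502052 counts in peaks (Idh2 R172K replicate 2) to 27890340 (Idh1 R132H replicate 1). In WT, Idh1 R132H, Idh2 R140Q and Idh2 R172K, replicates 2 and 4 had high signal over the 4 peaks of Xist, the X-inactivation gene, and in Tet2 knockout replicates 3 and 4 did. Each genotype thus held 2 Xist-high and 2 Xist-low libraries, and comparisons were repeated within each set.

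Promoter sequences of members show how differently these genes are built. They are RefSeq windows of 300 bases (assembly GRCm38.p6, 250 bases before the gene start to 50 after it), and 32 of the 40 members had one. The letters of ISRE (GAAA, any 2 bases, GAAA) and of GAS (TTC, any 3 bases, GAA) were searched on both strands. ISRE letters were found in 13 of the 32 windows (40.6%) against 3.44% of all 32851 windows, and GAS letters in 9 (28.1%) against 8.3%. Matches of one motif could overlap each other, and the motifs were counted apart. A match is a run of letters and no measured binding site. The sequences below are printed 5′ to 3′ in the direction of the gene with ISRE matches in capitals, the first 6 for members with a match and the last pair for a start peak that fell (Oasl1) and one that rose (Ifitm1) without a match in the window.
Isg15, chr4:156200769-156201068, minus strand: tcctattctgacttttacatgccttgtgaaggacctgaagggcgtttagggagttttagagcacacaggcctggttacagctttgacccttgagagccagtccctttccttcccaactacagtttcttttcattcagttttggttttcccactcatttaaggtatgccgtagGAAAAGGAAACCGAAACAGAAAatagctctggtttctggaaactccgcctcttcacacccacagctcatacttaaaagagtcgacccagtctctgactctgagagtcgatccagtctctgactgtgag
Ifit3, chr19:34583279-34583578, plus strand: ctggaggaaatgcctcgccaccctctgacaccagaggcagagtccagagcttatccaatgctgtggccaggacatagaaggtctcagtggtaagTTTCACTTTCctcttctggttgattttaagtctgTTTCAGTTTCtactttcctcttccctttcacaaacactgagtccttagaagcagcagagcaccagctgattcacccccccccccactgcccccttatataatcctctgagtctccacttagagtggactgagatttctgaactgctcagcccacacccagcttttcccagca
Bst2, chr8:71537423-71537722, minus strand: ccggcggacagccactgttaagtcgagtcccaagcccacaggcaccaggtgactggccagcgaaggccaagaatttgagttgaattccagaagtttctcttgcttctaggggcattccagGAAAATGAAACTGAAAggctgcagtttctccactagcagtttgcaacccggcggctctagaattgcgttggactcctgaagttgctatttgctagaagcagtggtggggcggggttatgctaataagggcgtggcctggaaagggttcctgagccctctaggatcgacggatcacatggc
Rsad2, chr12:26456403-26456702, minus strand: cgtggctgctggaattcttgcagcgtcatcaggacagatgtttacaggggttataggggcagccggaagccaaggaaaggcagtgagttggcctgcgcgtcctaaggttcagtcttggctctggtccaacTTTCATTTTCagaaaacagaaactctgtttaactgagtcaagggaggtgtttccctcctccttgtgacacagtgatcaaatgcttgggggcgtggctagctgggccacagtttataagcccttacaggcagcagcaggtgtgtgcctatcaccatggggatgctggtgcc
Ddx58, chr4:40239776-40240075, minus strand: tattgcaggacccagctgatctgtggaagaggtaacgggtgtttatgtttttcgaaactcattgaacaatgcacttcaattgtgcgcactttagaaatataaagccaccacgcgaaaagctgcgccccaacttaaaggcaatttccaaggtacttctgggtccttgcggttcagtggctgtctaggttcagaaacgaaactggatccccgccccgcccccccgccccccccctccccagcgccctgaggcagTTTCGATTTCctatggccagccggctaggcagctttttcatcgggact
Ifih1, chr2:62646206-62646505, minus strand: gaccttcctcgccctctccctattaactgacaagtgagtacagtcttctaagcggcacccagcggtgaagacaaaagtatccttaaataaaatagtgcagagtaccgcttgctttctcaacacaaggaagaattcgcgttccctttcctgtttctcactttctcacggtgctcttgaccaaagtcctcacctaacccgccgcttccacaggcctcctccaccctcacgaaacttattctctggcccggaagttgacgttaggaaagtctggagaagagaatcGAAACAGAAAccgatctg
Oasl1, chr5:114922990-114923289, plus strand: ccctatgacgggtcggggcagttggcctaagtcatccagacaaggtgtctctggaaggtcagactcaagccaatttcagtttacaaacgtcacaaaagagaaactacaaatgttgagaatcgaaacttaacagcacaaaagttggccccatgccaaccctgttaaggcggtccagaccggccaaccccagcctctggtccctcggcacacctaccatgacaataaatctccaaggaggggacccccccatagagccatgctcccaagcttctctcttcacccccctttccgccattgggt
Ifitm1, chr7:140967826-140968125, plus strand: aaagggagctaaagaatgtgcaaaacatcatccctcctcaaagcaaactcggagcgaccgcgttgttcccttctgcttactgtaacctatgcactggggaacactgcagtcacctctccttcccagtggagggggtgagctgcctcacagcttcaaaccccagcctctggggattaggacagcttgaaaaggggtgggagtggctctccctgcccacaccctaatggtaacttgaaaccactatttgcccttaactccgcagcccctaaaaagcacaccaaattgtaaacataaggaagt

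In Isg15, a ubiquitin-like protein, 3 overlapping matches began at positions -78, -72 and -66 from the start, and only 177 of the 300 bases lay in its peak. In Bst2 (tetherin) 2 overlapping matches began at -130 and -124, and in Ifit3 2 separate ones began at -156 and -122. Rsad2 (viperin) had 1 at -120. In the RNA sensors the match lay inside the transcribed part, 2 bases past the start in Ddx58 and 32 bases past it in Ifih1.

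In WT cells start levels differed widely between members of each role. Each member with a peak was given 1 start peak: the peak over the gene start, otherwise one that the authors' annotation classes as promoter, otherwise the peak nearest the start. Levels are CPM, counts scaled to a common library size, per kb of peak, so that wide and narrow peaks can be compared. The Ifngr1 start peak was the highest at 107 ± 3.78 CPM per kb (SD, n = 4 WT libraries), followed by Ifnar1 at 65.9 ± 3.02. Their partner chains were lower per kb, Ifngr2 at 27.1 ± 0.605 and Ifnar2 at 24.1 ± 0.923. Over the whole peak, however, Ifngr2 had 60.5 CPM and Ifnar1 61.9 CPM, the Ifngr2 peak being wider. Among the factors Irf1 (53.5 ± 2.58), Irf2 (45.8 ± 2.64) and Irf9 (37.9 ± 1.88) led, and Irf5 had 12.3 ± 0.964.

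Mavs, the mitochondrial adaptor, had the most open start among the sensors at 43.5 ± 1.42 CPM per kb. Zbp1, Ifih1, Dhx58 and Trim25 lay between 21.6 and 25.8, and Ddx58 was far below them per kb at 7.44 ± 0.316. That rank rests on its wide peak: over the whole peak Ddx58 had 13.8 CPM and Dhx58 13.4 CPM. Effector levels ran from 34.8 ± 1.38 at Bst2 and 28.3 ± 0.992 at Usp18 down to 5.34 ± 0.182 at Ifit3 and 3.05 ± 0.34 at Ifi44. The labels name no interferon treatment of these LSK cells. All start peaks were taken from regions already called open, so that these starts were open is no result. Levels per kb of effector starts differed by over 10 times between members. The promoter class made up 17.9% of member peaks against 12.5% of all peaks, and introns 27.8% against 41.9%.

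**Figure D1:**
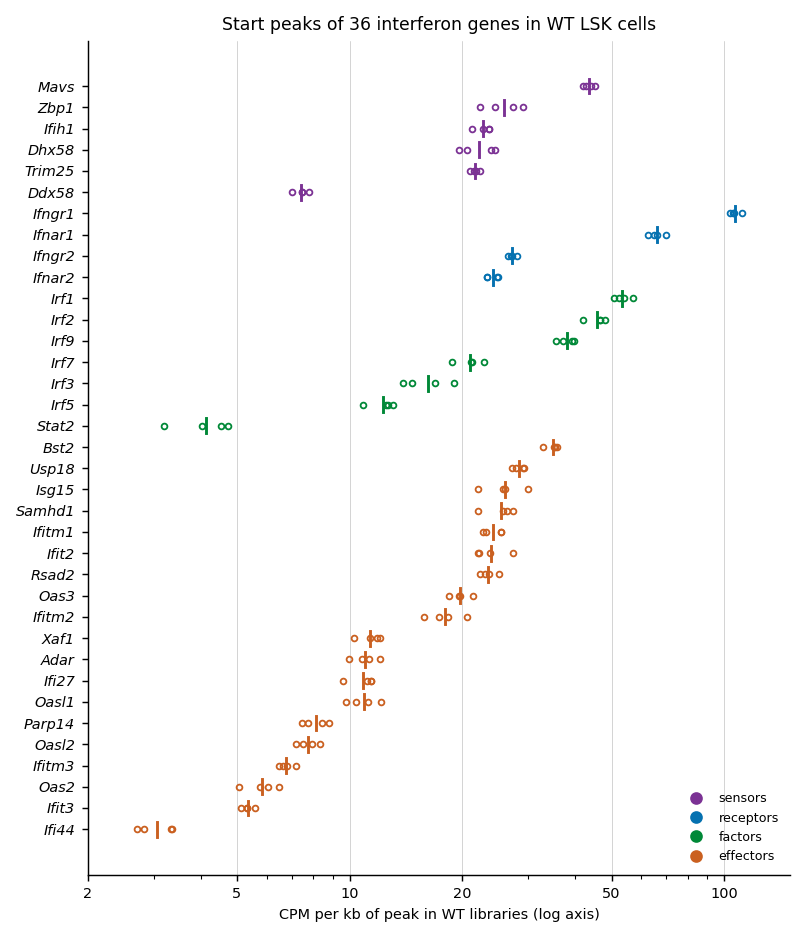
Start peak levels in WT cells as CPM per kb of peak on a log axis, with 1 circle per WT library, a bar at the mean of 4 and colours for the roles. Ifngr1 (107) and Ifnar1 (65.9) are the most open starts, and Ifi44 (3.05) is the least open.

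Chromatin of interferon genes differed most from WT in Idh2 R172K. In that genotype 50 of the 222 tested member peaks rose (22.5%) and 71 fell (32.0%), at an adjusted p below 0.05. Over all 123908 peaks tested 53.0% were called, 25.1% raised and 27.9% lowered, so the share of members called (54.5%) was near the background. The median log2 fold change was -0.06 for member peaks and 0.01 for all peaks. Of the members, 31 of 36 had a called peak and 20 had peaks that rose and peaks that fell. The 5 without a call were Irf3, Stat2, Isg15, Oas3 and Xaf1. For Irf3 and Stat2 the rule gave the peak over the start to another gene, and those peaks rose. Libraries of the 2 genotypes did not overlap in CPM at 100 member peaks (43.9% of all peaks tested did not). Changes past 2-fold were 27 falls and 4 rises of 222, where 13.2% of all peaks tested fell and 3.63% rose by as much, so the share of falls was near the background. The falls were in 11 genes. By count they were led by genes with many peaks, namely Irf2 (7 of 32 peaks), Ifngr1 (5 of 26, 1 of them untested), Ifnar1 (4 of 13) and Ifnar2 (3 of 11). The rises were at Mavs, Ifi44, Irf2 and Rsad2, 1 peak each.

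Start peaks and other peaks of the members had different shares of rises and falls, a difference that was not tested. Of 36 start peaks 17 rose and 5 fell, with a median log2 fold change of 0.2, where the promoter class as a whole had 39.8% raised and 15.0% lowered. Of the 186 other peaks 33 rose (17.7%) and 66 fell (35.5%). Counted by class, of the 182 member peaks outside the promoter class 34 rose and 64 fell, where all such peaks had 23.0% raised and 29.8% lowered. That class count includes some start peaks, such as those of Ifit2 and Ddx58. The 60 tested peaks beyond 10 kb held 8 rises (13.3%) and 29 falls (48.3%), where all peaks at that distance had 21.5% and 31.9%. The small rises at starts depend on the scaling: with cyclic loess, which removes trends with peak strength, 16 rose and 8 fell, and with library size alone 12 and 6. Under cyclic loess the start peaks of Ifngr1, Irf1, Irf2, Ifngr2 and Trim25 turned from above to below WT, those of Irf2 (-0.12, adjusted p = 0.0369) and Ifngr2 (-0.15, adjusted p = 0.00706) as calls. Within the Xist-high libraries 10 start peaks rose, at 2 libraries per genotype.

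**Figure D2:**
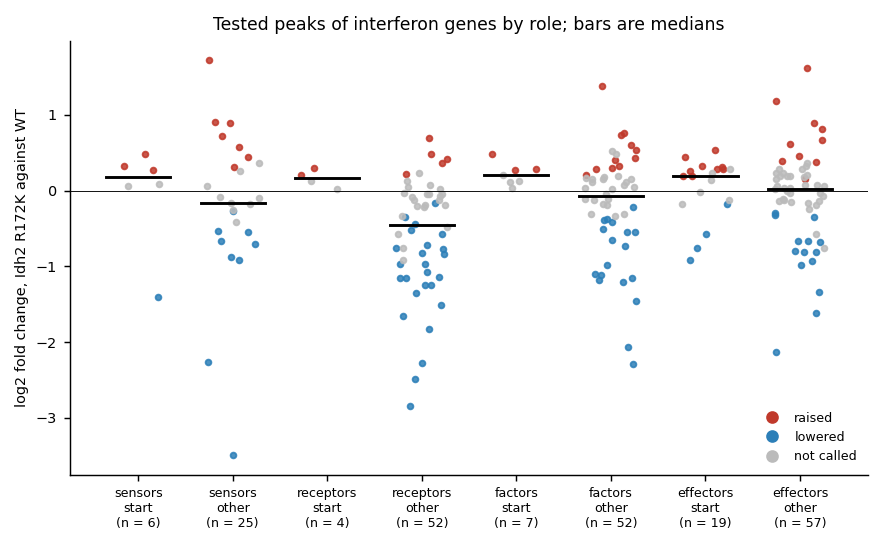
Log2 fold change in Idh2 R172K against WT for the 222 tested peaks, split by role into start peaks and other peaks, with 1 point per peak and a bar at the median. Start peaks sit above 0 except for some effectors and Zbp1 (under cyclic loess 5 more turn below 0), and the other receptor peaks have the lowest median (-0.46).

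Among the sensors, 10 peaks rose and 10 fell of 31, where 25.1% of all peaks tested rose and 27.9% fell. The Zbp1 promoter peak (chr2:173218523-173219360, mm10) fell the most of all 36 starts. Zbp1 binds Z-form nucleic acid and can trigger necroptosis. Its WT libraries had 24.3, 22.9, 18.7 and 20.5 CPM and its Idh2 R172K libraries 9.81, 6.82, 7.69 and 8.11 CPM, and the other 12 libraries ran from 19 to 24.1 CPM. All 4 Idh2 R172K libraries thus lay below the lowest of the other 16. The log2 fold change was -1.40 ± 0.093 (SE, adjusted p = 8.31e-16), a 2.63-fold fall. A second Zbp1 promoter-class peak beside it did not pass the test (-0.26, adjusted p = 0.101).

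The RNA sensors moved the other way at their starts. The Ddx58 start peak (chr4:40238595-40240456) had 14.5, 13.1, 13.9 and 13.9 CPM in WT and 20.7, 19.7, 18 and 18.9 CPM in Idh2 R172K, with no overlap (log2 fold change 0.48 ± 0.080, adjusted p = 3.37e-06). The starts of Mavs (0.33, adjusted p = 0.00033) and Ifih1 (0.27, adjusted p = 0.000545) also rose. Those of Dhx58 (0.09), a regulatory relative of the RNA sensors, and Trim25 (0.06), a ubiquitin ligase that acts on RIG-I, did not pass the test. Within Ddx58, a peak upstream of the start (-0.87) and an intronic peak (-0.54) fell.

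Ifih1 held the lowest fold change of all member peaks. This was an intronic peak 39.7 kb from the start (chr2:62606185-62606837, mm10), with 2.2, 2.05, 2.56 and 2.38 CPM in WT and 0.192, 0.0974, 0.185 and 0.281 CPM in Idh2 R172K. The log2 fold change was -3.49 ± 0.31 (adjusted p = 1.15e-12), and the groups did not overlap. These are few counts: 39 to 58 per WT library and 1 to 5 per Idh2 R172K library. A peak 8.45 kb upstream of the start (chr2:62654424-62654991) rose from 2.96, 2.74, 3.15 and 2.17 CPM to 4.81, 4.58, 5.54 and 5.35 CPM (0.91 ± 0.13, adjusted p = 3.2e-07), again without overlap. Of the 10 Ifih1 peaks 5 rose and 2 fell. All 5 Mavs peaks were called, 3 raised and 2 lowered, with log2 fold changes from -2.26 to 1.72.

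Most called peaks at the receptor loci fell, and none of these falls was at a start. Of 56 tested receptor peaks 7 rose and 25 fell. Without the 4 start peaks the counts were 5 raised and 25 lowered of 52 (48.1% lowered), with 13 of the falls past 2-fold and a median log2 fold change of -0.46. Of all peaks outside the promoter class 29.8% fell, 14.3% by over 2-fold, and 23.0% rose, 3.98% by over 2-fold. The receptor genes were grouped with earlier results known, and their share was not tested against that background. The 3 loci Ifnar2, Ifnar1 and Ifngr2 neighbour one another on chromosome 16, and a peak between them was given to the gene with the nearer boundary. At the Ifnar1 start (chr16:91484764-91485702) the WT libraries had 62.1, 58.8, 61.1 and 65.7 CPM and the Idh2 R172K libraries 73.2, 75.4, 75.6 and 82 CPM, a rise without overlap (0.30 ± 0.069, adjusted p = 0.000306). The Ifnar2 start (chr16:91372436-91373572) had 28.2, 26.5, 26.5 and 28.3 CPM in WT and 31, 30.1, 33.4 and 31.8 CPM in Idh2 R172K (0.21 ± 0.061, adjusted p = 0.00386). That small rise did not pass the test with library size alone (0.13, adjusted p = 0.0531), with cyclic loess (0.10, adjusted p = 0.132) or within the Xist-high libraries (0.18, adjusted p = 0.0948).

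Around Ifnar1, 8 of 13 peaks fell and only the start rose. A peak 26.6 kb upstream of the gene (chr16:91458242-91458641) had 2.58, 2.41, 2.63 and 3.03 CPM in WT and 0.5, 0.292, 0.37 and 0.675 CPM in Idh2 R172K, with no overlap (-2.49 ± 0.23, adjusted p = 3.98e-12). A promoter-class peak 17 kb past the other end (chr16:91527153-91527870) fell from 7.39, 8.43, 7.49 and 8.45 CPM to 4.08, 4.09, 3.66 and 4.5 CPM (-0.97 ± 0.12, adjusted p = 1.04e-08). The largest fall near the gene was at a peak 8.98 kb upstream (-2.84), named after its value was seen. Of 11 Ifnar2 peaks 4 fell and 1 rose, of 7 Ifngr2 peaks 3 fell and 2 rose, and of 25 tested Ifngr1 peaks 10 fell and 3 rose.

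For Ifngr1, 8 of the 10 falls lay upstream of the gene, where a like share of its tested peaks lay. The most negative fall (-1.83) was at 77.2 kb. The start peak itself had 99.3 ± 3.52 CPM in WT and 109 CPM in Idh2 R172K and did not pass the test (0.13, adjusted p = 0.0929). A weak peak at the end of a transcript inside Ifngr1 (chr10:19598205-19598395) had 0.683, 0.859, 0.722 and 0.615 CPM in WT and 0.461, 0.0974, 0.406 and 0.338 CPM in Idh2 R172K, from 11 to 21 and 1 to 12 counts. Its fall (-0.97 ± 0.34, adjusted p = 0.0148) did not pass without WT replicate 2 (-0.86, adjusted p = 0.0504), with cyclic loess (-0.70, adjusted p = 0.0761) or within the Xist-low libraries (-0.68, adjusted p = 0.222).

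**Figure D3:**
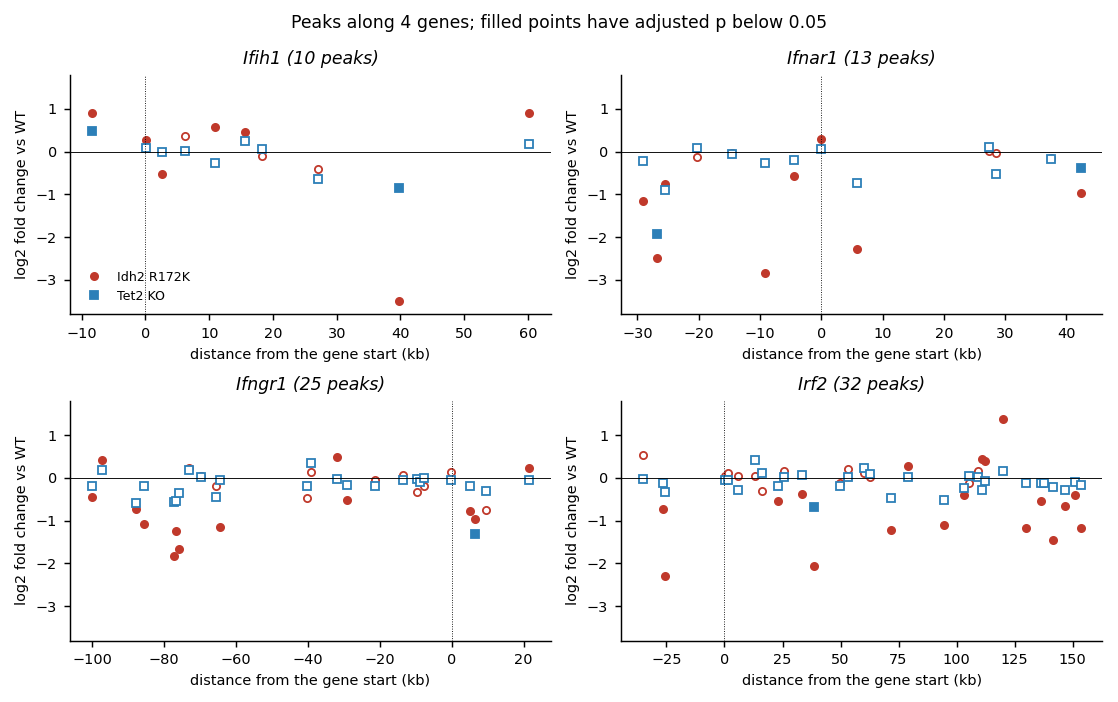
Log2 fold change against WT of each tested peak of Ifih1, Ifnar1, Ifngr1 and Irf2 by its distance from the gene start in kb, with circles for Idh2 R172K and squares for Tet2 knockout. Filled points passed the test, and the deepest falls lie away from the starts, such as the Ifih1 intron at -3.49.

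Among the transcription factors, 14 peaks rose and 18 fell of 59, where 25.1% of all peaks tested rose and 27.9% fell. None of their 7 start peaks fell, where 15.0% of promoter-class peaks did. Irf5, a factor of inflammatory gene programmes, had the largest rise among the starts of factors (chr6:29526445-29527134), from 8.99, 8.71, 7.49 and 8.65 CPM in WT to 14.1, 9.15, 13.4 and 9.91 CPM in Idh2 R172K (0.49 ± 0.11, adjusted p = 0.000324). The Idh2 R172K libraries split by the Xist set: the Xist-low replicates 1 and 3 had more CPM at this start than the Xist-high replicates 2 and 4. Within the Xist-low libraries the log2 fold change was 0.72 (adjusted p = 4.82e-06) and within the Xist-high ones 0.14 (adjusted p = 0.416), although the difference between the sets did not pass the test over all peaks (-0.57 ± 0.18, adjusted p = 0.728). Irf9, the DNA-binding part of the type I interferon complex, rose from 35, 39.1, 38.5 and 36.6 CPM to 43.4, 44.2, 41.9 and 50.3 CPM at its start (chr14:55603614-55604597; 0.27 ± 0.067, adjusted p = 0.000844). Irf7, which amplifies interferon production, rose at its start (0.29, adjusted p = 0.00126) and fell in a promoter-class peak beside it (-0.22, adjusted p = 0.0102).

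Irf1 and Irf2 had the highest start levels per kb among the factors in WT. Those starts did not pass the test (0.12 and 0.04), and changes of either sign lay farther out. Irf1 activates interferon targets, and Irf2 is known as its antagonist and as a factor that keeps blood stem cells quiescent. Of 16 Irf1 peaks 7 rose and 2 fell. A peak 21.5 kb upstream (chr11:53747871-53749080) fell from 8.38, 8.22, 9.78 and 7.5 CPM to 3.69, 3.51, 4.47 and 3.55 CPM (-1.12 ± 0.11, adjusted p = 7.21e-11). One 24.9 kb downstream of Irf1 (chr11:53802908-53803693) rose from 9.33, 8.84, 10.3 and 9.47 CPM to 13.5, 16.2, 13.5 and 14.9 CPM (0.60 ± 0.093, adjusted p = 8.52e-07). Neither pair of groups overlapped.

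Of 32 Irf2 peaks 4 rose and 14 fell. An intronic peak 38.5 kb into the gene (chr8:46777971-46778611) had 7.62, 7.44, 6.37 and 7.63 CPM in WT and 1.54, 1.75, 1.77 and 1.97 CPM in Idh2 R172K (-2.07 ± 0.17, adjusted p = 1.5e-12). A peak 12.1 kb past the end of Irf2 (chr8:46858999-46860046) rose from 7.09, 6.22, 7.35 and 5.62 CPM to 19, 15.6, 16.2 and 17 CPM (1.38 ± 0.10, adjusted p = 1.17e-14). The other 12 libraries had 4.94 to 8.22 CPM there, so the 4 Idh2 R172K libraries stood above all 16 others.

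Effectors had 19 raised and 18 lowered of 76 peaks, where 25.1% of all peaks tested rose and 27.9% fell. Of their 19 start peaks 9 rose (47.4%) and 4 fell (21.1%). In the promoter class as a whole 39.8% rose and 15.0% fell, and the difference was not tested. Ifitm1, a membrane protein that blocks virus entry, rose the most, from 18.3, 20.4, 20.4 and 18.6 CPM to 28.1, 30.6, 27.8 and 27 CPM at its start (chr7:140967702-140968506; 0.54 ± 0.067, adjusted p = 6.58e-09). Usp18, which removes Isg15 and dampens Ifnar2 signalling, rose from 25.9, 25.7, 24 and 24.6 CPM to 34, 32.6, 32.3 and 37.8 CPM (chr6:121245305-121246189; 0.44 ± 0.072, adjusted p = 1.7e-06). In both the groups were apart. The starts of Bst2 (0.32), Ifit3 (0.31), Ifitm2 (0.29), Samhd1 (0.29), Parp14 (0.26), Adar (0.20) and Ifit2 (0.19) rose by less. With cyclic loess the Adar and Ifit2 calls were lost, and Isg15 (0.28, adjusted p = 0.0552) and Ifitm3 (0.23, adjusted p = 0.0528) passed at 0.34 (adjusted p = 0.0211) and 0.25 (adjusted p = 0.0378). With library size alone the calls at Adar (adjusted p = 0.265), Ifit2 (0.143), Parp14 (0.0704) and Ifit3 (0.151) were lost.

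The lowered starts were those of Oasl1, Oas2, Ifi27 and Rsad2. Oasl1, an oligoadenylate synthetase-like protein known to restrain Irf7 translation, fell from 6.98, 6.42, 5.98 and 5.62 CPM to 4.04, 2.63, 3.36 and 2.81 CPM (chr5:114922952-114923525; -0.92 ± 0.13, adjusted p = 1.13e-07). Oas2, which makes the oligoadenylate that activates RNase L, had 5.08, 5.44, 4.86 and 4.26 CPM in WT and 2.88, 3.41, 2.59 and 3.04 CPM in Idh2 R172K (chr5:120749361-120750201; -0.76, adjusted p = 2.8e-06). In both the groups did not overlap. Ifi27 fell from 7.58, 9.04, 9 and 8.78 CPM to 5.81, 6.52, 4.91 and 6.3 CPM (chr12:103433916-103434706; -0.57 ± 0.11, adjusted p = 6.04e-05), also without overlap. The fall at Rsad2 was small (-0.17, adjusted p = 0.0333) and its groups overlapped. Oasl2 (-0.18, adjusted p = 0.0816) passed as lowered with cyclic loess (-0.21, adjusted p = 0.0378) and with library size alone (-0.25, adjusted p = 0.0185). Oas3, beside Oas2, was at -0.02 at its start and had no called peak.

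Away from its start Rsad2 changed more. A peak 3.14 kb past its end (chr12:26439265-26439945) fell from 10.8, 11.5, 10.6 and 11.9 CPM to 3.46, 3.8, 4.18 and 3.15 CPM (-1.61 ± 0.12, adjusted p = 4.43e-15). An intronic peak (chr12:26452836-26453335) rose from 3.3, 2.54, 2.69 and 2.79 CPM to 7.46, 4.67, 6.43 and 6.59 CPM (1.18 ± 0.13, adjusted p = 7.77e-10). Neighbouring peaks of one antiviral gene thus moved in opposite directions by over 2-fold, each with no overlap between groups. The other effector peaks past 2-fold were a fall 2.96 kb beyond Ifitm3 (-2.13), a rise 92.4 kb beyond Ifi44 (1.62) and a fall inside Rsad2 (-1.34).

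ISRE letters were set beside the changes at the starts as a description, with no test. Counted were start peaks that overlap the member's window, which leaves out Stat2, Irf3, Eif2ak2 and Ifit1. The rule gave the peaks over the starts of these genes to other genes. Those peaks rose at Stat2 (0.32), Eif2ak2 (0.23) and Ifit1 (0.23), whose windows held the letters. The one at Irf3, whose window did not, rose too (0.22). Of the 10 whose window held the letters, 5 rose, 1 fell and 4 were not called, with a median log2 fold change of 0.28. Of the 18 without, 10 rose, 1 fell and 7 were not called, with a median of 0.2. Isg15 with its 3 matches was not called, Bst2 with 2 rose, and Ifitm1 with none rose the most. Zbp1, Ifi27 and Oas2, of the 5 lowered starts, have no window in the table used.

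**Figure D4:**
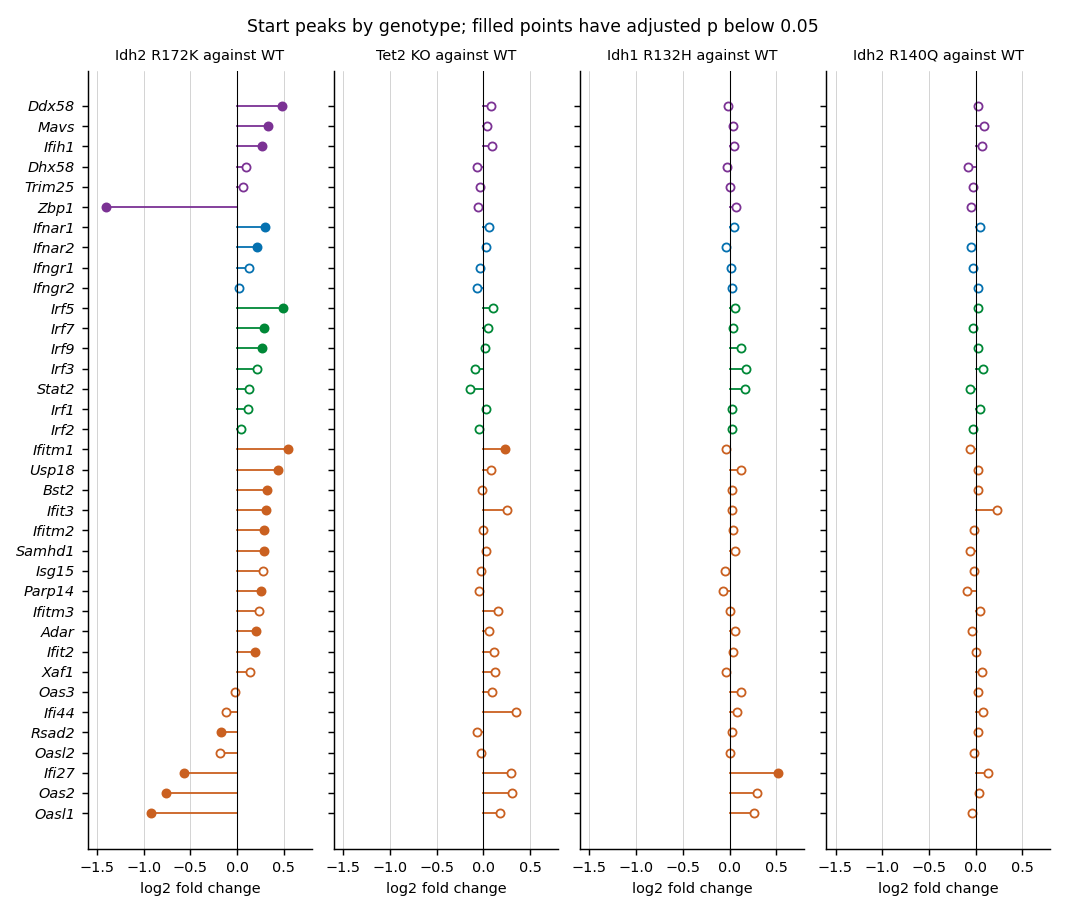
Log2 fold change of the 36 start peaks against WT in each mutant genotype, with filled points for an adjusted p below 0.05 and colours for the roles as in the plot of WT levels. Idh2 R172K has 22 filled points, Tet2 knockout 1 (Ifitm1) and Idh1 R132H 1 (Ifi27).

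In Tet2 knockout, 2 member peaks rose and 7 fell of 222 (4.05% called), where 3.1% of all tested peaks were called, 0.785% raised and 2.32% lowered. The median log2 fold change was -0.03 for members and 0.01 for all peaks. Libraries did not overlap at 23 member peaks (8.58% of all peaks tested did not). The falls were at receptor, factor and sensor loci away from starts and beside Rsad2, and the rises at Ifitm1 and Ifih1. These comparisons use the same WT libraries as those of Idh2 R172K, so direct tests between the 2 mutants are given beside them.

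The largest fall was at the Ifnar1 peak 26.6 kb upstream, with 0.747, 0.682, 0.656 and 0.713 CPM in Tet2 knockout against 2.41 to 3.03 CPM in WT (-1.92 ± 0.20, adjusted p = 2.94e-08). It remained called in all 18 alternatives, and the direct test of Idh2 R172K against Tet2 knockout did not pass (-0.57 ± 0.29, adjusted p = 0.105). The Irf2 intronic peak had 4.95, 5.26, 3.67 and 4.36 CPM in Tet2 knockout (-0.69 ± 0.14, adjusted p = 0.0027), and Idh2 R172K lay lower still (-1.37 ± 0.18, adjusted p = 9.09e-08). At the Ifih1 intron Tet2 knockout had 1.17, 1.17, 1.24 and 1.43 CPM (-0.85 ± 0.20, adjusted p = 0.0104), again above Idh2 R172K (difference -2.64 ± 0.34, adjusted p = 2.57e-08). At these 3 peaks all 4 Tet2 knockout libraries lay below all 4 WT libraries.

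The peak past Rsad2 had 7.51, 10.6, 7.91 and 8.15 CPM in Tet2 knockout (-0.40 ± 0.10, adjusted p = 0.0188), of which replicate 2 reached the lowest WT level of 10.6 CPM. The weak Ifngr1 peak had 0.373, 0.195, 0.347 and 0.225 CPM, or 4 to 9 counts (-1.31 ± 0.34, adjusted p = 0.0209). A peak classed as intronic 42.6 kb past Irf1 (chr11:53820706-53821217) had 2.54, 2.54, 1.9 and 2.71 CPM in WT, 1.5, 1.95, 1.96 and 1.58 CPM in Idh2 R172K (-0.51 ± 0.18, adjusted p = 0.0177) and 1.77, 1.22, 1.27 and 1.8 CPM in Tet2 knockout (-0.69 ± 0.18, adjusted p = 0.0213). Its Idh2 R172K call was lost without WT replicate 4 (adjusted p = 0.0533) and without Idh2 R172K replicate 1 (adjusted p = 0.0789), with cyclic loess (adjusted p = 0.0666) and within the Xist-low (0.209) and the Xist-high libraries (0.0848). The Ifnar1 peak 17 kb downstream had 5.6, 6.52, 6.06 and 6.08 CPM in Tet2 knockout (-0.39 ± 0.11, adjusted p = 0.041).

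Both rises were small. The Ifitm1 start had 23.7, 22.1, 24.1 and 21.2 CPM in Tet2 knockout against 18.3 to 20.4 CPM in WT (0.23 ± 0.067, adjusted p = 0.0419), without overlap. Idh2 R172K was higher still (0.31 ± 0.066, adjusted p = 1.54e-04). The peak 8.45 kb upstream of Ifih1 had 3.27, 4.48, 3.94 and 3.57 CPM against 2.17 to 3.15 CPM in WT (0.48 ± 0.14, adjusted p = 0.0385). The Zbp1 promoter, the lowest start in Idh2 R172K relative to WT, was at -0.06 in Tet2 knockout (adjusted p = 0.809), and the direct test between the genotypes gave -1.34 ± 0.093 (adjusted p = 4.16e-15).

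Several of these Tet2 knockout calls were lost when any 1 of several libraries of either genotype was left out. With all libraries kept, DESeq2 did not call the Ifitm1, upstream Ifih1 and downstream Ifnar1 peaks. The Ifitm1 call was also lost with cyclic loess. The Ifitm1 adjusted p was 0.159, 0.0509 and 0.122 without WT replicates 1, 2 and 4, and 0.117 and 0.155 without Tet2 knockout replicates 1 and 3. For the Ifih1 upstream peak it was 0.0576, 0.0945 and 0.17 without WT replicates 1, 2 and 4, and 0.113, 0.107 and 0.0548 without Tet2 knockout replicates 2, 3 and 4. For the Rsad2 peak it was 0.0604 and 0.0703 without WT replicates 2 and 4, and 0.0948, 0.084 and 0.0659 without Tet2 knockout replicates 1, 3 and 4. For the Irf1 peak it was 0.0659, 0.0645 and 0.0755 without WT replicates 1, 2 and 4, and 0.0584 and 0.103 without Tet2 knockout replicates 2 and 3. For the Ifngr1 peak it was 0.0903 without WT replicate 2, and 0.0531 and 0.0805 without Tet2 knockout replicates 2 and 4. For the downstream Ifnar1 peak it was 0.0535, 0.138 and 0.117 without WT replicates 1, 2 and 4, and 0.131, 0.0985 and 0.0894 without Tet2 knockout replicates 1, 3 and 4. Directions held in each case.

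In Idh1 R132H, 1 member peak rose and 1 fell of 222, where 0.0274% of all tested peaks were called, 0.00646% raised and 0.021% lowered. At an unadjusted p below 0.05 there were 14 of 222 (5.07% of all peaks tested), and libraries did not overlap at 13 (3.37% of all peaks tested did not). The Ifi27 promoter had 11.3, 13.4, 10.7 and 13.8 CPM against 7.58 to 9.04 CPM in WT (0.52 ± 0.10, adjusted p = 0.0404). All 4 libraries lay above WT, opposite to Idh2 R172K, and the direct test of Idh2 R172K against Idh1 R132H gave -1.08 ± 0.11 (adjusted p = 7.32e-11). The Ifih1 intronic peak had 1.49, 0.854, 1.02 and 0.996 CPM against 2.05 to 2.56 CPM in WT (-1.02 ± 0.21, adjusted p = 0.0491), below WT in all 4 libraries. Both calls stood near the threshold and were lost in 11 and 12 of 18 alternatives. Leaving out any 1 of the 8 libraries except Idh1 R132H replicate 3 ended the Ifi27 call (adjusted p from 0.0604 to 0.287), and any except Idh1 R132H replicate 1 ended the Ifih1 call (from 0.081 to 0.259).

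In Idh2 R140Q no member peak was called by edgeR or by DESeq2, where 0.0153% of all peaks tested were, 0.00807% raised and 0.00726% lowered. Libraries did not overlap at 7 member peaks (2.69% of all peaks tested did not). The lowest adjusted p was 0.794, and 17 of 222 member peaks had an unadjusted p below 0.05, as did 5.5% of all peaks tested. Log2 fold changes ran from -0.78 to 0.67 with a median of -0.01. At the Ifih1 intron the Idh2 R140Q libraries had 1.41, 1.6, 2.84 and 1.26 CPM, of which replicate 3 lay above every WT library and the other 3 below (-0.37 ± 0.20, adjusted p = 0.919). At the upstream Ifnar1 peak they had 1.94, 1.72, 2.64 and 1.26 CPM (-0.49 ± 0.17, adjusted p = 0.794).

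**Figure D5:**
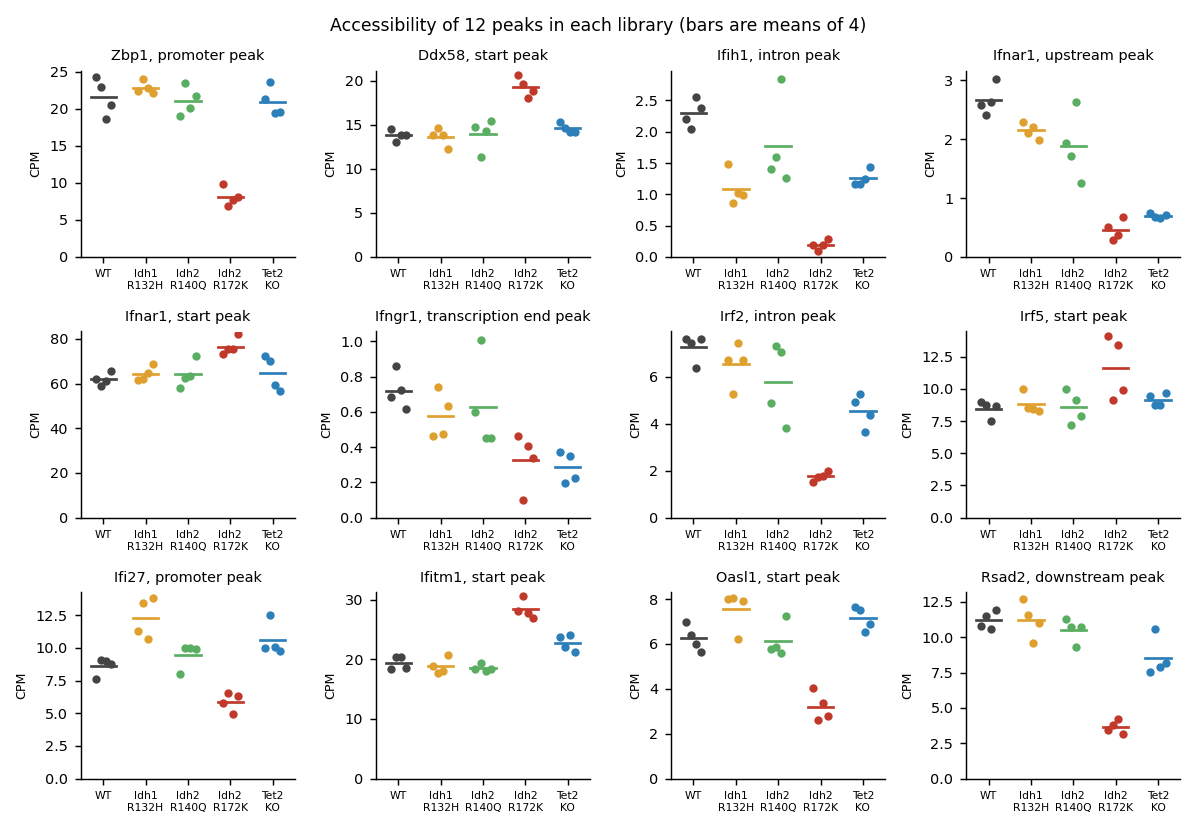
CPM in each library for 12 member peaks, with 1 point per library, a bar at the mean of 4 and the axis from 0. Idh2 R172K stands below all other genotypes at Zbp1, the Ifih1 intron, Oasl1 and the peak past Rsad2, while Tet2 knockout stands beside it at the upstream Ifnar1 peak.

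Set directly against the other mutants, Idh2 R172K differed at many member peaks. Against Tet2 knockout 44 rose and 59 fell, or 46.4%, where 44.3% of all peaks tested were called, 20.1% raised and 24.1% lowered. Against Idh2 R140Q 51 rose and 63 fell, or 51.4%, where 47.0% of all were called, 21.5% raised and 25.5% lowered. Against Idh1 R132H 43 rose and 66 fell, or 49.1%, where 50% of all were called, 23.3% raised and 26.7% lowered. Each share was near its background. The 2 Idh2 alleles change the same enzyme and differ at Zbp1 by -1.34 ± 0.094 (adjusted p = 4.09e-15), at the Ifih1 intron by -3.12 ± 0.32 (adjusted p = 1.17e-10), at Ifitm1 by 0.61 ± 0.067 (adjusted p = 7.01e-10) and at the peak past Irf2 by 1.30 ± 0.10 (adjusted p = 8.77e-14). The weak Ifngr1 peak (adjusted p = 0.0774) and the peak 42.6 kb past Irf1 (adjusted p = 0.535) did not pass between the alleles. Irf9 did not pass against Idh1 R132H (0.15 ± 0.066, adjusted p = 0.0554).

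Some starts lie outside the counts above because the rule gave their peak to an overlapping or neighbouring gene, a choice looked at after the values were seen. The peak over the start of Eif2ak2 (PKR, an RNA-activated kinase that blocks translation; chr17:78881787-78883011) had 19.2, 19, 20.1 and 18.8 CPM in WT and 22.7, 22.9, 21.3 and 23.6 CPM in Idh2 R172K (0.23, adjusted p = 0.00349). That of Ifit1 (chr19:34640455-34641212) had 10.3, 11.3, 9.52 and 9.8 CPM and 11.9, 12.7, 11.5 and 12.3 CPM (0.23, adjusted p = 0.0176). Both were higher in Idh2 R172K without overlap. Mx1 and Mx2, dynamin-like antiviral proteins, are annotated in RefSeq as transcribed pseudogenes in this strain's reference, and their starts did not pass the test (-0.02 and 0.15). Stat2 and Irf3 share their start peak with Apof and Bcl2l12, and those peaks rose (0.32, adjusted p = 5.99e-05, and 0.22, adjusted p = 0.00279), while the peaks given to Stat2 and Irf3 by the rule lay 13.7 and 1.05 kb from the start. In Tet2 knockout, Idh1 R132H and Idh2 R140Q none of the 6 passed.

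Other genes of the pathway were counted from lists chosen by function. Of 131 peaks of 26 other interferon-inducible genes, such as Gbp2 and Psmb8, 34 rose and 31 fell in Idh2 R172K, 2 and 0 in Tet2 knockout, where 25.1% of all peaks rose and 27.9% fell in Idh2 R172K. Of 62 peaks named for 7 interferon genes, 16 rose and 14 fell in Idh2 R172K and none was called in Tet2 knockout. In Idh1 R132H and Idh2 R140Q these lists held no call. Ly6a had a weak promoter peak (1.19 CPM in WT, 1.11 CPM in Idh2 R172K) that did not pass the test.

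The LSK label was set against marker promoters. Summed over 13 promoter peaks, 8 LSK and stem cell genes had 121 to 128 CPM in WT and were above that range in all 4 Idh2 R172K libraries, up to 152 CPM. Of the 186 tested peaks of that list 54 rose and 50 fell, where 25.1% of all peaks tested rose and 27.9% fell. Promoter-class peaks as a whole rose more often (39.8%) than they fell (15.0%). Promoter sums of the other interferon-inducible genes were higher too, at 515 to 536 against 447 to 475 CPM. Promoter sums of some mature cell lists, each over few peaks, were lower in Idh2 R172K. They were 15.2 to 18.1 against 19.6 to 22.6 CPM over 4 promoter peaks of monocyte and neutrophil genes. T and NK cell genes had 1.19 to 1.66 against 2.17 to 2.54 CPM over 2 promoter peaks. Genes of plasmacytoid dendritic cells, which make interferon, had 6.75 to 8.57 against 9.72 to 11 CPM over 3 promoter peaks. B cell sums over 3 promoter peaks (25.5 to 31.2 against 29.8 to 32.7 CPM) and erythroid sums over 2 (9.15 to 11.9 against 9.72 to 11.6 CPM) overlapped. Stromal and endothelial sums over 5 promoter peaks were higher (50.6 to 55.8 against 40.3 to 49.7 CPM). Of the 79 tested peaks of the stromal list, however, 33 fell and 15 rose, where 27.9% of all peaks tested fell and 25.1% rose. In Tet2 knockout the LSK sum was 134 to 140 CPM. Cd3g, Cd79a, Ly6g and Klk1 had no peak. In pooled cells a smaller number of cells of one type and less open chromatin per cell cannot be told apart, and the part of these shifts in the member results was not tested.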

How the data were processed

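ATAC-seq counts of LSK cells were deposited by the authors as whole-number counts per peak of 1 peak set in 20 libraries. The submitters' processing notes name mm10, featureCounts, MACS2, BWA, Trim Galore, SAMtools and Picard. Versions, read shifting and the treatment of multi-mapped reads, which bears on the Ifitm, Ifit and Oas copies, were not given in those notes. The 4 columns named for Idh1 with R140Q were taken as Idh2 R140Q, the only genotype with that change. Genes came from RefSeq coordinates (GRCm38.p6).

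All 123908 peaks that passed the edgeR filter (of 125343) were fitted with edgeR 4.0.16 in R 4.3.3 (TMM, robust quasi-likelihood, 1 mean per genotype, 20 libraries). Adjusted p values are Benjamini-Hochberg over all tested peaks, 2-sided, threshold 0.05. CPM use TMM-scaled library sizes. Errors are SD over 4 libraries or an approximate SE. This SE is the size of the log2 fold change divided by the square root of the test's F statistic. It may be too small at peaks with few counts. Each library pools 2 mice, and whether libraries of a genotype share litters is not given. P-values measure the spread between these pooled libraries. Deviations of same-numbered libraries correlated above 0.1 in all 4 pairs of WT with Idh1 R132H and with Idh2 R140Q (0.102 to 0.275), but not in all pairs of WT with Idh2 R172K or Tet2 knockout. The labels do not say what a number shares, and the fit used no block. DESeq2 1.42.0 was an alternative.

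Members, lists and tests were chosen with earlier results of these data known. Values in every library were to be given for all called member peaks in Tet2 knockout, Idh1 R132H and Idh2 R140Q, for the first 6 raised and first 6 lowered peaks by p in Idh2 R172K without overlap (1 per gene and direction), and for the 2 start peaks per role with the smallest p there. Oas2 and peaks named only by a log2 fold change were singled out after their values were seen. The list of kinases and adaptors of the pathway is not reported here.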

Additional observations from a re-analysis of the deposited data

Results flagged for a closer look

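In 5 of 110 groups of 4 libraries, over 22 named peaks and 5 genotypes, 1 library stood apart from the other 3 by Dixon's criterion, and chance flags about 1 group in 20. At the Ifi27 promoter Idh2 R140Q replicate 1 was low at 7.97 CPM (the others 9.88 to 10), and Tet2 knockout replicate 2 was high at 12.5 CPM (the others 9.76 to 10.1). At the Oasl1 start Idh1 R132H replicate 3 was low at 6.22 CPM (the others 7.93 to 8.03). At the Irf2 intronic peak WT replicate 3 was low at 6.37 CPM (the others 7.44 to 7.63). At the Irf5 start Idh1 R132H replicate 1 was high at 10 CPM (the others 8.29 to 8.48).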

How the results depend on the processing

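Of 828 alternatives over 46 single-peak results, 742 kept direction and side of the threshold, 85 lost a call, 1 gained one and 0 reversed. Lost calls were 12 of 396 in Idh2 R172K, 50 of 162 in Tet2 knockout and 23 of 36 in Idh1 R132H. The gain was Ifi27 in Tet2 knockout with the replicate block (adjusted p = 0.0286). Over all genotypes same-number correlations ran from -0.0942 to 0.289, 20 of 40 were above 0.1, and 15 of 20 libraries correlated best with their own number. Outside Tet2 knockout, same-numbered libraries also shared the Xist set. The parts of number and Xist set in these correlations were not tested. The replicate block changed no call in Idh1 R132H (Ifi27 adjusted p = 0.0009, Ifih1 0.00819) or Idh2 R140Q. With the replicate block 5 member peaks rose in Tet2 knockout, 56 rose and 72 fell in Idh2 R172K, and no other count moved by over 1.5 times.

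With promoter-class peaks only, fewer peaks were counted: 16 raised and 7 lowered in Idh2 R172K, 1 and 1 in Tet2 knockout, 0 lowered in Idh1 R132H, and 24, 24 and 23 called for Idh2 R172K against Tet2 knockout, Idh2 R140Q and Idh1 R132H. Within 10 kb, 42 were lowered in Idh2 R172K and 4 in Tet2 knockout. At adjusted p below 0.01, Tet2 knockout had 0 raised and 2 lowered and Idh1 R132H 0 and 0. Raised peaks in Tet2 knockout numbered 0 within the Xist-low or the Xist-high libraries, with 2 groups only and by DESeq2, and 2 were lowered within the Xist-low ones. In Idh1 R132H the rise was absent (0) with library size, cyclic loess and within either Xist set, and the fall (0) with DESeq2's size factors, cyclic loess, DESeq2 and either set. Within the Xist-high libraries, 62 and 70 were called for Idh2 R172K against Tet2 knockout and Idh2 R140Q, and 10 start peaks rose in Idh2 R172K. With cyclic loess 8 start peaks fell. The cause was not tested where fewer peaks or libraries do not set it. Counts of start peaks, of other peaks and of peaks outside the promoter class were added after seeing the data.

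Leaving out 1 library gave 44 to 52 raised and 65 to 71 lowered in Idh2 R172K, 0 to 3 and 3 to 9 in Tet2 knockout, and 0 to 1 each in Idh1 R132H. Depth limits the weakest peaks, such as Ifih1 with 1 to 5 counts per Idh2 R172K library.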
